A study of Mus musculus with 9 samples.

Results

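The genes described here flank Sgcd, the gene of delta-sarcoglycan, on mouse chromosome 11. They are all genes, of any biotype, whose start on the GRCm38 assembly lies between 42900000 and 50000000, other than Sgcd itself, Pttg1 and Cyfip2. That rule gave 142 members of the 49671 gene identifiers counted, among them 73 protein-coding genes, 28 processed pseudogenes, 11 lincRNAs and 9 antisense RNAs. Of the 142, 47 had 50 or more reads over the 9 libraries and are called measured members. They comprised 43 protein-coding genes, 3 processed pseudogenes and 1 antisense RNA, and all 47 were among the 15261 genes tested. The other 95 members had fewer than 50 reads, and 56 of these had 0 reads in every library.

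Polyadenylated RNA was sequenced from left ventricle of wild-type mice (WT) and of dSG knockout mice (KO), which lack delta-sarcoglycan, after vehicle or ifetroban, a drug that blocks the thromboxane-prostanoid receptor. The groups were WT vehicle (2 libraries), WT ifetroban (2), KO vehicle (2) and KO ifetroban (3), which makes 4 WT and 5 KO libraries. Strain, age, sex, drug dose, the deleted exons and whether each library came from its own animal are not given in the sources used here. The p-values thus reflect spread among libraries that may be technical. The comparisons ask how the neighbours of the targeted gene differ between genotypes, and whether ifetroban changes them in either genotype.

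Delta-sarcoglycan is a subunit of the sarcoglycan complex, which is part of the dystrophin-glycoprotein complex that links the cytoskeleton of a muscle cell to the extracellular matrix. Genes that lie close together on a chromosome are usually inherited together. When a targeted allele is carried into another strain, the chromosome around it can therefore stay that of the strain in which the allele was made. The chromosome stretch around Sgcd also holds a cluster of interferon-inducible GTPases, proteins that defend cells against intracellular microbes, and the Tim family of immune receptors. No sequence variants were analysed here.

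Promoters are shown first for the 3 members whose KO and WT libraries did not overlap, Ublcp1, Gm12167 and Havcr2. Each is the 250 bases before the RefSeq transcript start on GRCm38.p6, printed 5′ to 3′ on the strand of the gene, with CG dinucleotides in capitals.
Ublcp1 (chr11:44470549-44470798, minus strand): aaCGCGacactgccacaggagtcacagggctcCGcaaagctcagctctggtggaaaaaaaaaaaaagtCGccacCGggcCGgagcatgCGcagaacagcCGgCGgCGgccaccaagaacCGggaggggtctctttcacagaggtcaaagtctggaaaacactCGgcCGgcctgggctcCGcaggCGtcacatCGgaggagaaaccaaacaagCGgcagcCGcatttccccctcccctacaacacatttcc
Gm12167 (chr11:46342037-46342286, plus strand): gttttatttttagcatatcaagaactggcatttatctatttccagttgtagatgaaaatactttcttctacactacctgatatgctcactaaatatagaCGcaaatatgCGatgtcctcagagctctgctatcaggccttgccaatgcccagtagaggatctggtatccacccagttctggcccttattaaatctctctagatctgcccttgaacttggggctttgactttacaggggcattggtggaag
Havcr2 (chr11:46454681-46454930, plus strand): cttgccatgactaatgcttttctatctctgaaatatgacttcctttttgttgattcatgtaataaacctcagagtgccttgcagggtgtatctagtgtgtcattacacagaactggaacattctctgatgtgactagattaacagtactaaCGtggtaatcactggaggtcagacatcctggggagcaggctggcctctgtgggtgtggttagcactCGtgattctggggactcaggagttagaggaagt
The Ublcp1 promoter held 18 CG dinucleotides, and those of Gm12167 and Havcr2 held 2 each. The median was 7 over the 39 measured members that had a RefSeq promoter and 6 over all 32851 promoters in the table.

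The second set shows promoters of 2 interferon-inducible GTPases of the cluster, Irgm1 and Tgtp2. Capitals mark matches, on either strand, to 2 motifs. The interferon-stimulated response element (ISRE) was searched as GAAA, any 2 bases and GAAA, and the gamma-activated site (GAS), which STAT dimers bind, as TTC, any 3 bases and GAA.
Irgm1 (chr11:48871421-48871670, minus strand): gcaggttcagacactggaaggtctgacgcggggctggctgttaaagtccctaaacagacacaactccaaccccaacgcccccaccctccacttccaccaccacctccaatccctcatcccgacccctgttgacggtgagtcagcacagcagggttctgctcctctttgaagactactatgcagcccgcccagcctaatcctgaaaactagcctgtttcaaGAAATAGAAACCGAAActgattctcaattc
Tgtp2 (chr11:49064213-49064462, minus strand): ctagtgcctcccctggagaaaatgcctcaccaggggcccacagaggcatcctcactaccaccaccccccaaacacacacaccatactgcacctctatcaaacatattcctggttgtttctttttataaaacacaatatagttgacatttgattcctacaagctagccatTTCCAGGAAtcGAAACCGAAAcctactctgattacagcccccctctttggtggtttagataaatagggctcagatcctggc
Irgm1 held 2 ISRE matches that overlap each other and no GAS match. Tgtp2 held 1 match of each kind, which do not overlap. Of the 8 measured GTPase members 4 held an ISRE match and 3 a GAS match, all within the same 4 promoters. Over all 32851 promoters 2.98% held an ISRE match and 7.02% a GAS match. A match describes letters in this window and does not show that a factor binds there.

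Reads counted to genes ranged from 21299748 to 31394548 per library. The labelled tissue was checked with cardiomyocyte markers, all 7 of which were detected in every library. Their summed level was 41418 to 50942 CPM (counts divided by each library size after TMM scaling, which compares libraries and not genes) in KO and 54230 to 56535 in WT. Liver markers (Alb and Apoa1) summed to 0.159 CPM in 1 KO vehicle library and 70.7 CPM in the other. They summed to 0.271 to 4.96 CPM in KO ifetroban and 0 to 0.889 CPM in WT. The source of this liver signal was not tested. Across genes, deviations from the mean also followed transcript length. Long transcripts were relatively low in KO ifetroban replicate 1, in KO vehicle replicates 1 and 2 and in the library labelled WT vehicle replicate 1 (Spearman -0.417 to -0.29), and relatively high in the other 5 libraries (0.302 to 0.386). Sgcd (chromosome 11, 46896253 to 47988969, minus strand) was at 11.1 CPM in the library labelled WT vehicle replicate 1, inside the KO range of 7.49 to 18.5 CPM. It was at 28.9 to 33.1 CPM in the other WT libraries. Averaged over both treatments, the log2 fold change of Sgcd was -1.07 ± 0.292 (SE, edgeR, Benjamini-Hochberg adjusted p = 0.13), so Sgcd itself was not called. Within KO, Sgcd was at 7.49 to 12.1 CPM where long transcripts were low and at 16.4 and 18.5 CPM where they were high. Sgcd thus went against the label of WT vehicle replicate 1, and the part of the length trend in this was not tested. Pttg1 (76.7 CPM there, 1.66 to 2.46 in KO) and Cyfip2 (194 CPM there, 17.5 to 44.9 in KO) went with the label.

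Of the 47 measured flanking genes, 2 were called lower in KO ventricle and the others were not called. With the genotype difference averaged over both treatments, Gm12167, an antisense RNA, and Ublcp1, a phosphatase of the nuclear proteasome, fell, and no member rose (edgeR quasi-likelihood test, Benjamini-Hochberg adjusted p under 0.05 over all genes). These 2 are 4.26% of the 47 measured members. For the same difference DESeq2 called 6 of the 47 members and 754 of the 15261 genes. The members were Gfpt2, Havcr2 and Thg1l, higher, and Gm12167, Trim7 and Ublcp1, lower. Over all 15261 genes edgeR called 0.537%, 77 higher and 5 lower, which is 0.505% and 0.0328%. Of the 5 genes called lower, 4 lay inside the window: Pttg1, Cyfip2, Gm12167 and Ublcp1. Pttg1 and Cyfip2 were known to be low before the window was drawn, so they stand outside the members.

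At an unadjusted p under 0.05 the averaged difference had 13 members, 27.7% of those measured, against 16.5% of all genes. The median log2 fold change of the members was -0.13, with 28 negative and 19 positive, and that of all genes was -0.0036. The median size of the change without its sign was 0.19 in members and 0.21 in all genes. The 21 members below Sgcd in coordinate had a median of -0.13 and held both called genes. The 26 members above it had a median of -0.12 and none called.

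**Figure D1:**
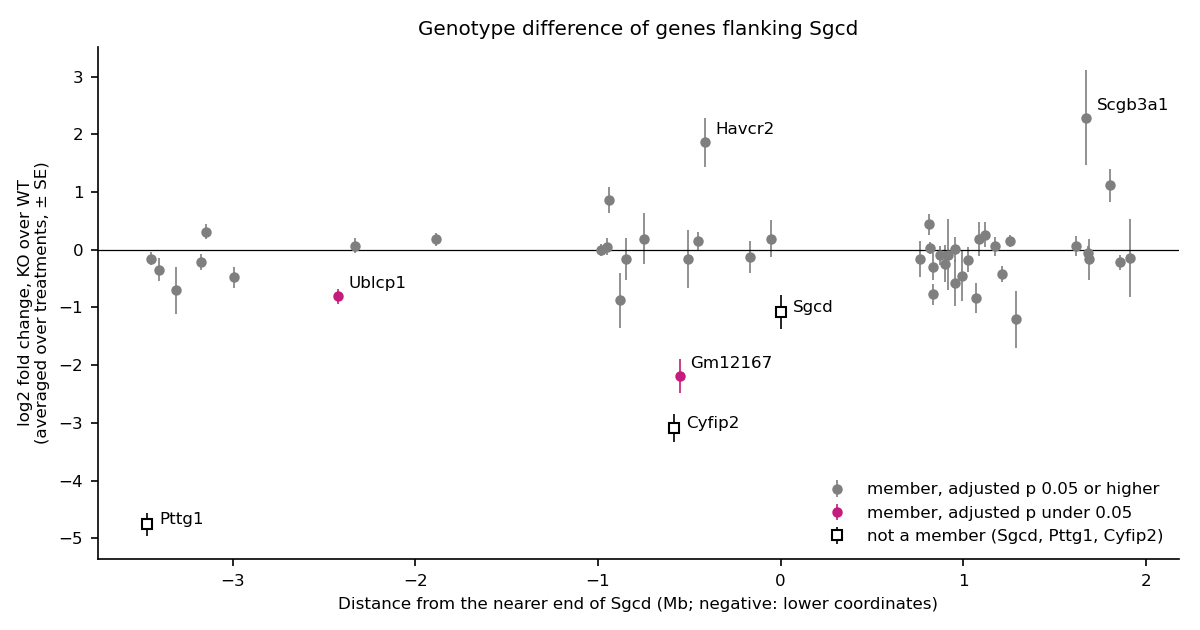
Genotype difference of the measured members against distance from the nearer end of Sgcd in Mb. Points are log2 fold changes of KO over WT averaged over treatments, bars are SE, and open squares are Sgcd, Pttg1 and Cyfip2, which are not members. Gm12167, at -2.19, lies close to Cyfip2, at -3.09, and Ublcp1, at -0.81, lies between Pttg1 and the cluster of members nearest Sgcd.

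By distance, the 23 members within 1 Mb of Sgcd had a median of -0.09 and 1 called, and the 16 members 1 to 2 Mb away had a median of 0.0013 and none called. The 3 members 2 to 3 Mb away had a median of -0.48 and 1 called, and the 5 members 3 to 4 Mb away had a median of -0.21 and none called. The plot of difference against distance shows called members scattered among neighbours that were not called. Outside the window, the adjoining stretch of lower coordinate held 8 tested genes with a median of -0.05, and that of higher coordinate held 77 with a median of -0.0028. Neither adjoining stretch had a called gene. In the lower stretch, 2 of the 8 genes had all KO libraries below all WT libraries, against 2.28% of all genes. Log2 fold changes in the lower stretch ran from -2.21 to 2.08, and 25% of its genes had an unadjusted p under 0.05. In the higher stretch, 1 gene was below and 4 were above without overlap, and 19.5% had an unadjusted p under 0.05. Over all genes these shares were 2.28%, 5.03% and 16.5%. The rest of chromosome 11 held 1117 tested genes with a median of 0.02, of which 6 were called higher and 0 lower.

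Gm12167 (ENSMUSG00000085853, chromosome 11, 46342287 to 46345020, plus strand) is an antisense RNA that lies 0.551 Mb from Sgcd. It was at 8.93 and 6.88 CPM in WT vehicle and at 5.10 and 5.39 CPM in WT ifetroban. It was at 0.931 and 2.42 CPM in KO vehicle and at 1.31, 0.767 and 1.47 CPM in KO ifetroban. Every KO library was below every WT library. Its mean was 4.76-fold higher in WT (6.57 ± 1.75 CPM, SD, n = 4) than in KO (1.38 ± 0.648 CPM, SD, n = 5). The averaged log2 fold change was -2.19 ± 0.297 (SE, edgeR, BH-adjusted p = 0.0284), with -2.22 ± 0.442 under vehicle and -2.16 ± 0.395 under ifetroban, neither called on its own. Between KO and WT libraries of the same length trend, log2(mean CPM + 0.1) differed by -2.45 where long transcripts were low, with 1 WT library. It differed by -2.27 where long transcripts were high, which held no KO vehicle library. The 2 kinds of library thus also differ in treatment.

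The call of Gm12167 was lost without any 1 library other than KO vehicle replicate 1 or KO vehicle replicate 2, with adjusted p between 0.0533 and 0.172 in those 7 edgeR fits and log2 fold changes of -2.62 to -1.93 over all 9. It was also lost with a term for the length trend (-2.31, edgeR adjusted p = 0.0761) and with counts taken without regard to strand (-2.44, edgeR adjusted p = 0.0653). The exons of Gm12167 overlap those of a gene on the opposite strand. Counts without regard to strand held 72 of its reads, against 793 by strand. The end of Cyfip2 lies 29.4 kb below the start of Gm12167.

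Ublcp1 (ENSMUSG00000041231, chromosome 11, 44454571 to 44470498, minus strand) encodes a phosphatase with a ubiquitin-like domain that acts on nuclear proteasomes, and lies 2.43 Mb from Sgcd. It was at 33.7 and 25.7 CPM in WT vehicle and at 23.4 and 22.9 CPM in WT ifetroban. It was at 14.0 and 16.8 CPM in KO vehicle and at 15.3, 14.3 and 14.2 CPM in KO ifetroban. No KO library reached the lowest WT library, and the KO libraries spanned a narrower range than the WT ones. Its mean was 1.77-fold higher in WT (26.4 ± 5.02 CPM, SD, n = 4) than in KO (14.9 ± 1.18 CPM, SD, n = 5). The averaged log2 fold change was -0.81 ± 0.126 (SE, edgeR, BH-adjusted p = 0.0400), with -0.95 ± 0.187 under vehicle and -0.67 ± 0.168 under ifetroban.

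Within libraries of the same length trend, Ublcp1 differed by -1.13 where long transcripts were low, with 1 WT library. It differed by -0.75 where they were high, with no KO vehicle library. The call was lost without any 1 library other than KO vehicle replicate 2, with adjusted p between 0.0734 and 0.265 in those 8 edgeR fits and log2 fold changes of -0.91 to -0.72 over all 9. It was also lost with a term for the length trend (-0.90, edgeR adjusted p = 0.0569). Of its stretches of 50 exonic bases, 26.9% also occur in other genes, mostly Gm12663 on chromosome 11 outside the window (16635109 to 16636066, minus strand) and Gm8826 on chromosome 3.

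Gm12663, looked at after its values were seen, was itself called, in the opposite direction to Ublcp1 (3.41 ± 0.484, SE, edgeR, BH-adjusted p = 0.0304). It was at 0.0386 to 0.317 CPM in WT and 0.651 to 1.86 CPM in KO, from 193 reads in all, and Gm8826 had 1 read. The mean of Gm12663 was 1.26 CPM higher in KO, while that of Ublcp1 was -11.5 CPM as KO minus WT. Summed over the 3 genes the level was 23.3 to 33.8 CPM in WT and 14.6 to 18.4 CPM in KO, which do not overlap. The files list reads with several alignments apart from genes, and how many of these came from Ublcp1 was not tested.

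Havcr2 (ENSMUSG00000020399, 46454935 to 46481255, plus strand) encodes TIM-3, an inhibitory receptor of T cells and myeloid cells, and lies 0.415 Mb from Sgcd. It was at 0.359 and 0.464 CPM in WT vehicle and at 0.729 and 0.396 CPM in WT ifetroban. It was at 3.35 and 0.953 CPM in KO vehicle and at 1.78, 1.26 and 1.40 CPM in KO ifetroban. All KO libraries were above all WT libraries, and KO vehicle replicate 1 was highest. The log2 fold change was 1.86 ± 0.421 (SE, edgeR, BH-adjusted p = 0.0807), which did not pass, and 1.28 to 2.18 over the fits that left out 1 library. Havcr2 was the only measured member with all KO libraries above all WT libraries, 2.13% of members against 5.03% of all genes. Ublcp1 and Gm12167 were the only 2 with all KO libraries below, 4.26% against 2.28%.

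Macrophage markers (Adgre1, Csf1r, Cd68 and Cd163) summed to 106 to 142 CPM in KO and 76.5 to 89.8 CPM in WT, with all 4 tested, 0 called higher and none at 0. T-cell markers (Cd3e, Cd3g, Cd2 and Trac) summed to 0.931 to 1.35 CPM in KO and 0.690 to 1.66 CPM in WT, with 1 of 4 tested, 0 called higher and none at 0 in any library. The part of these cells in the Havcr2 values was not tested. In bulk tissue, fewer cells of a type and less RNA per cell cannot be told apart.

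**Figure D2:**
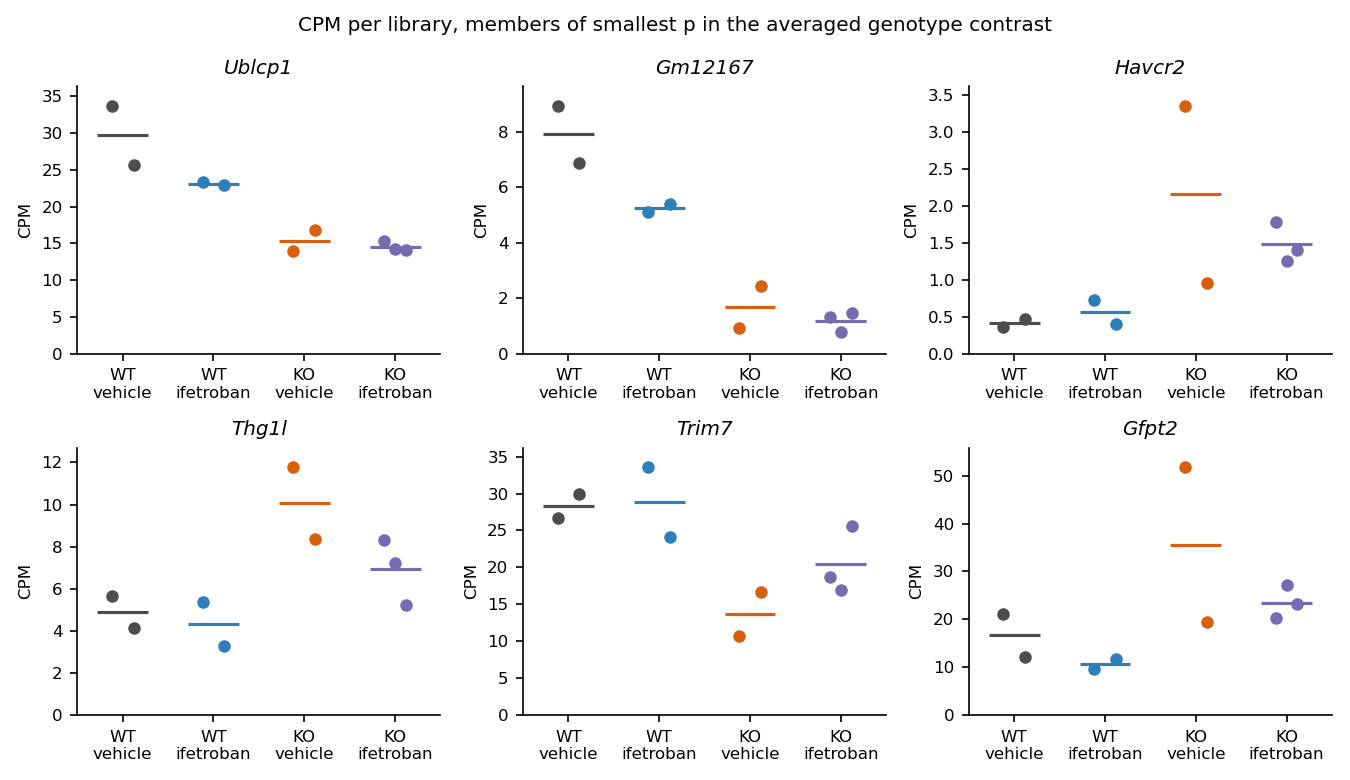
CPM in each library for the 6 members with the smallest p in the averaged genotype difference. Points are libraries, horizontal lines are group means. KO points lie below all WT points for Ublcp1 and Gm12167 and above them for Havcr2, while Thg1l, Trim7 and Gfpt2 have KO and WT points that overlap.

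Members of ubiquitin pathways and membrane traffic had 6 tested genes with a median log2 fold change of 0.01, of which edgeR called only Ublcp1, and DESeq2 Ublcp1 and Trim7. Trim7, an E3 ubiquitin ligase, was at 26.74 and 29.98 CPM in WT vehicle, 33.6 and 24.1 in WT ifetroban, 10.7 and 16.7 in KO vehicle and 18.7, 17.0 and 25.6 in KO ifetroban. KO ifetroban replicate 3 was the only KO library within the WT range, and the difference did not pass (-0.77 ± 0.185, SE, edgeR, BH-adjusted p = 0.0927). Trim41, another E3 ligase and 1 of the 3 measured members closest to Sgcd on that side, was at 26.3 to 28.6 CPM in WT and 26.6 to 28.9 CPM in KO (0.03 ± 0.0993, SE). It overlaps Rack1 on the opposite strand, and both were counted by strand. Ttc1, a chaperone adaptor with tetratricopeptide repeats, was at 26.4 to 38.6 CPM in WT and 30.5 to 42.5 CPM in KO (0.31 ± 0.130, SE, edgeR adjusted p = 0.275). Rnf145 and the clathrin adaptor gene Clint1 had log2 fold changes of 0.07 ± 0.124 and -0.0084 ± 0.106 (SE), and were added after their values were seen to complete the group.

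Members of RNA processing, transcription and translation had 8 tested genes, a median of -0.0015 and none called in edgeR, while DESeq2 called Thg1l. Thg1l, which adds a guanosine to histidine tRNA, was at 5.65 and 4.13 CPM in WT vehicle, 5.37 and 3.29 in WT ifetroban, 11.8 and 8.38 in KO vehicle and 8.32, 7.21 and 5.24 in KO ifetroban. Only KO ifetroban replicate 3 lay among the WT values (0.86 ± 0.226, SE, edgeR, BH-adjusted p = 0.118). Rack1, a scaffold protein of the small ribosomal subunit, had the highest level per kilobase of exon among the members, 59.3 CPM per kb against a median of 2.19. It was at 229 to 327 CPM in WT and 250 to 512 CPM in KO, highest in KO vehicle replicate 1 (0.44 ± 0.187, SE, edgeR adjusted p = 0.287). Within libraries of the same length trend its difference was 0.27 where long transcripts were low, with 1 WT library. It was 0.14 where they were high, with no KO vehicle library.

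The zinc-finger gene Zfp62 was at 25.3 to 30.7 CPM in WT and 15.7 to 28.6 CPM in KO, lowest in KO vehicle replicate 1 (-0.42 ± 0.143, SE, edgeR adjusted p = 0.199). Slu7, a splicing factor, lies 7.49 kb from Pttg1 and was at 30.2 to 34.3 CPM in WT and 24.4 to 32.2 CPM in KO (-0.15 ± 0.109, SE, edgeR adjusted p = 0.489). Pttg1 itself was at 46.2 to 76.7 CPM in WT and 1.66 to 2.46 CPM in KO (-4.76 ± 0.198, SE). Pwwp2a, a chromatin reader of the histone variant H2A.Z, had a log2 fold change of -0.21 ± 0.140 (SE).

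Receptors, proteases, secreted factors and signalling genes had 7 tested members with a median of -0.14 and none called in edgeR for the averaged difference. Adra1b encodes the alpha-1B adrenergic receptor, which binds noradrenaline on cardiomyocytes and smooth muscle. It was at 41.2 and 44.8 CPM in WT vehicle, 32.3 and 38.8 in WT ifetroban, 17.3 and 23.3 in KO vehicle and 40.1, 49.6 and 26.6 in KO ifetroban. Both KO vehicle libraries were below all 7 others, and the KO ifetroban libraries lay below, inside and above the WT range. The log2 fold change of KO over WT was -1.08 ± 0.279 under vehicle (SE, edgeR, BH-adjusted p = 0.241) and 0.13 ± 0.252 under ifetroban. The ifetroban difference within KO was 0.93 ± 0.260 (edgeR adjusted p = 0.688) and the interaction 1.20 ± 0.377 (edgeR adjusted p = 0.9998), so none of these passed. Both KO vehicle libraries also had long transcripts low, as did WT vehicle replicate 1, at 41.2 CPM, and KO ifetroban replicate 1, at 40.1 CPM. Within libraries of the same length trend, Adra1b differed by -0.61 where long transcripts were low, with 1 WT library, and by -0.02 where they were high. The latter held no KO vehicle library, so length trend and treatment cannot be told apart in this split. The averaged log2 fold change was -0.48, and -0.47 with a term for the length trend. The part of that trend in the vehicle difference of Adra1b was not tested.

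Scgb3a1, a small secreted protein of airway epithelium, was at 2.23 CPM in KO vehicle replicate 1 and at 0.0386 to 0.514 CPM in the other 8 libraries (2.29 ± 0.825, SE, edgeR adjusted p = 0.225). Without KO vehicle replicate 1 its log2 fold change was 0.86. Mapk9, which encodes the stress kinase JNK2, was at 46.7 to 52.1 CPM in WT and 32.8 to 48.1 CPM in KO (-0.22 ± 0.126, SE). C1qtnf2, a secreted relative of adiponectin, was at 2.97 to 4.44 CPM in WT and 2.02 to 3.81 CPM in KO (-0.35 ± 0.198, SE).

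The immune receptors and lymphoid regulators had 5 tested members with a median of 0.18, 4 of them positive and none called in edgeR, while DESeq2 called Havcr2. Timd4, a phosphatidylserine receptor of resident macrophages, is the closest measured member to Sgcd, 51.9 kb away. It was at 1.43 to 2.72 CPM in WT and 1.30 to 2.99 CPM in KO (0.19 ± 0.321, SE), and the sign of this difference changed in other fits. Btnl9, a butyrophilin-like gene and among the 5 members of highest level per kilobase, was at 48.0 to 67.1 CPM in WT and 44.8 to 91.9 CPM in KO (0.06 ± 0.159, SE), also with a sign that changed. Ebf1, a transcription factor of B cells and stromal cells, was at 21.9 to 32.4 CPM in WT and 26.6 to 34.1 CPM in KO (0.18 ± 0.115, SE).

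The interferon-inducible GTPases had 8 tested members, 7 with negative log2 fold changes, a median of -0.21 and none called in edgeR. Tgtp2, whose promoter is shown above, was at 2.52 and 4.87 CPM in WT vehicle, 3.03 and 3.21 in WT ifetroban, 1.02 and 1.83 in KO vehicle and 2.24, 2.52 and 2.79 in KO ifetroban. Most KO libraries were below the WT libraries and 1 WT vehicle library lay among the KO ifetroban values (-0.84 ± 0.260, SE, edgeR, BH-adjusted p = 0.174). Tgtp1 had a log2 fold change of -0.46 ± 0.441 (SE) and turned to 0.27 without WT vehicle replicate 2. 9930111J21Rik1 had -0.58 ± 0.396 (SE) and turned to 0.08 with a term for the length trend. Irgm1, a regulator of the other GTPases and chosen for display after its values were seen, was at 15.5 to 19.6 CPM in WT and 11.5 to 20.0 CPM in KO (-0.09 ± 0.165, SE).

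Several of these GTPases are near-identical copies, so their values are uncertain. Of the stretches of 50 exonic bases, 86.6% of those of Tgtp2, 81.2% of Tgtp1, 82.9% of 9930111J21Rik1 and 59.2% of 9930111J21Rik2 also occur in other genes. Interferon-inducible genes on other parts of the genome were set beside them as a list of 32, all tested. Their median was 0.09, with 15 negative, 17 positive and 0 called. The 4 with the smallest p were Zbp1 at 1.06 ± 0.249, Gbp4 at -0.71 ± 0.206, B2m at 0.44 ± 0.156 and Bst2 at 0.43 ± 0.162 (SE). Their edgeR adjusted p values were 0.0893 to 0.239.

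**Figure D3:**
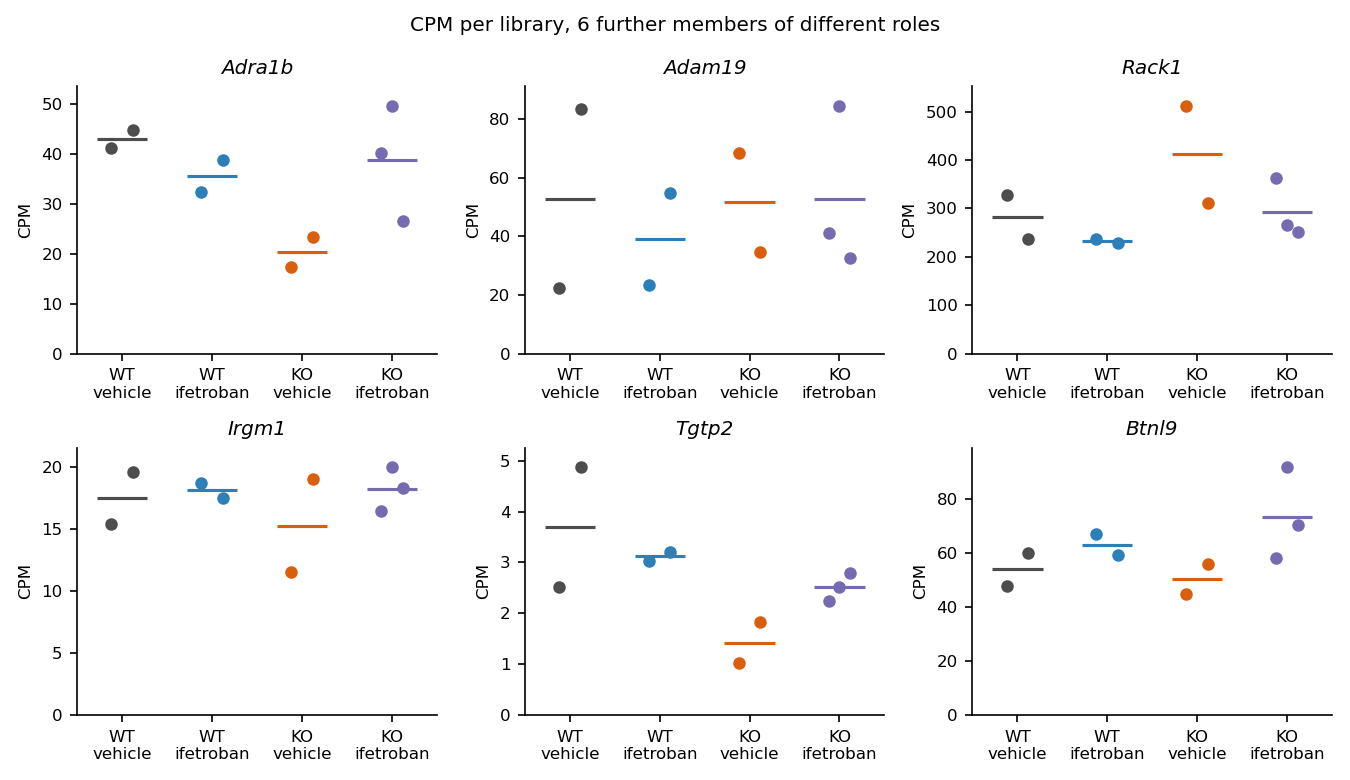
CPM in each library for 6 members of different roles. Points are libraries and horizontal lines are group means. Adra1b is low in both KO vehicle libraries, Adam19 spreads widely within groups, Rack1 is highest in KO vehicle replicate 1, and Irgm1, Tgtp2 and Btnl9 have overlapping KO and WT points.

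The metabolic members measured were Gfpt2 and Mgat1. Gfpt2, a rate-limiting enzyme of hexosamine synthesis, was at 21.1 and 12.2 CPM in WT vehicle, 9.59 and 11.8 in WT ifetroban, 51.7 and 19.3 in KO vehicle and 20.2, 27.1 and 23.2 in KO ifetroban. WT vehicle replicate 1 lay among the KO values, and the difference did not pass (1.12 ± 0.285, SE, edgeR, BH-adjusted p = 0.108). Its mean was 2.07-fold higher in KO, and KO vehicle replicate 1 was highest. Fibroblast markers (Pdgfra, Dcn, Col1a1 and Tcf21) summed to 671 to 948 CPM in KO and 558 to 588 CPM in WT, with 4 of 4 tested, 1 called higher and none at 0. Their part in the Gfpt2 values was not tested. Mgat1, which starts the branching of N-linked glycans, was at 74.6 to 81.3 CPM in WT and 77.9 to 94.7 CPM in KO (0.15 ± 0.107, SE).

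Olfactory receptor members were low. Olfr1393 was at 0.614 to 1.80 CPM in WT and 0.140 to 0.890 CPM in KO (-1.21 ± 0.490, SE, edgeR adjusted p = 0.269), and Olfr1396 was at 1.99 to 2.98 CPM in WT and 1.87 to 3.60 CPM in KO (0.26 ± 0.218, SE). Of 9 tested members outside these roles, 8 had negative log2 fold changes and only Gm12167 was called. Sox30, a transcription factor of sperm development, had -0.88 ± 0.473 (SE), and Ccnjl, a cyclin-like gene, -0.70 ± 0.404 (SE). The processed pseudogenes Gm12174 and Gm12183 and the protein-coding gene model Gm12184 had -0.13 ± 0.278, -0.16 ± 0.315 and -0.29 ± 0.229 (SE). Of their stretches of 50 bases, 72% of Gm12174, 44.2% of Gm12183 and 89.2% of Gm12184 also occur elsewhere. The 17 members not named by rule had log2 fold changes between -0.24 and 0.20, and their smallest unadjusted p was 0.39.

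**Figure D4:**
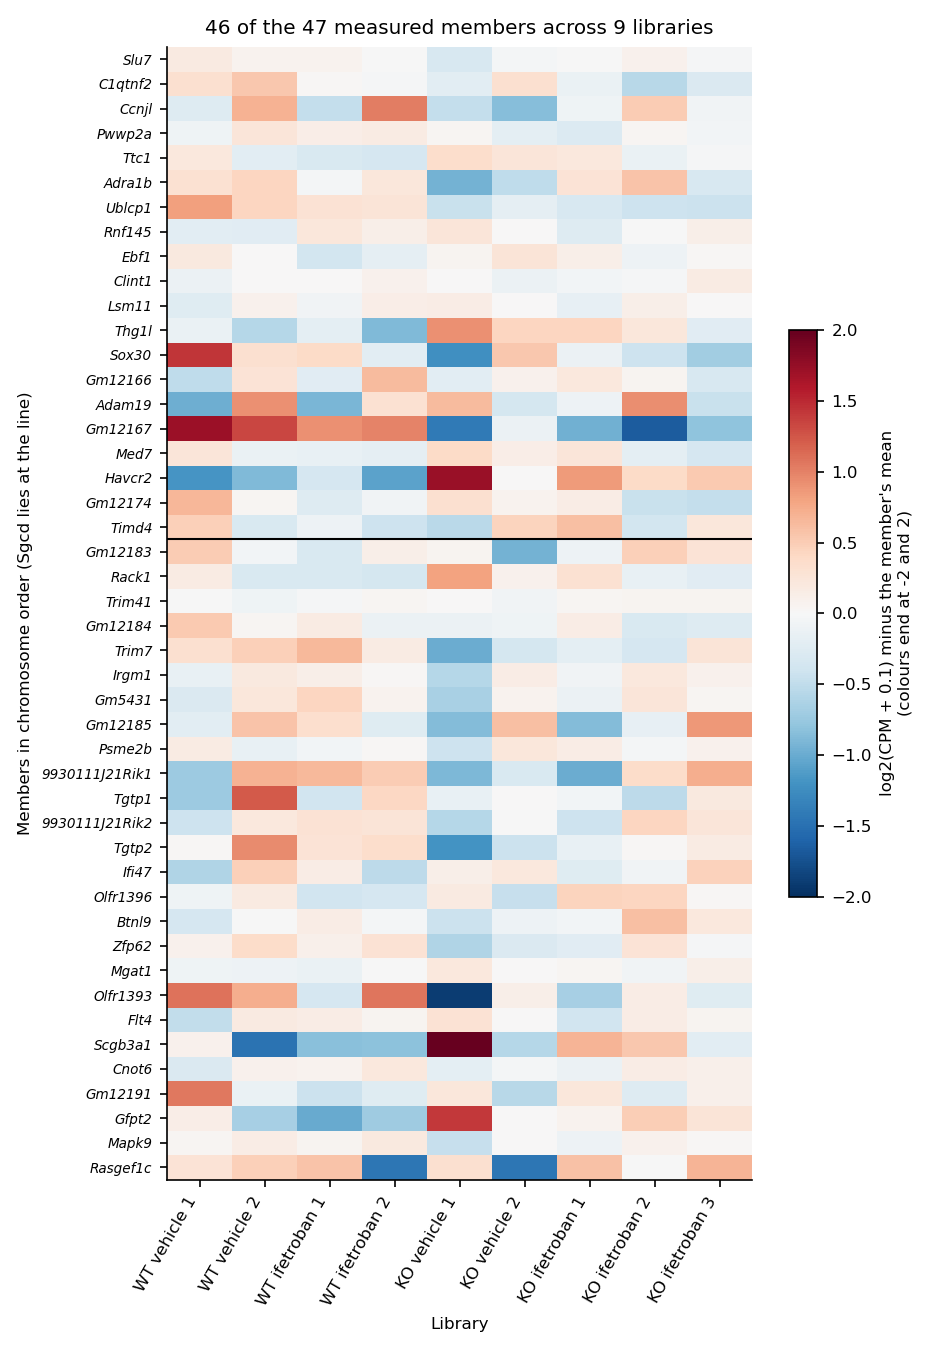
Level of 46 of the 47 measured members in each library, with 1 member not shown, as log2(CPM + 0.1) minus the mean of the member over the 9 libraries. Rows follow chromosome order with a line where Sgcd lies, and red is above and blue below the mean. Gm12167 and Ublcp1 are red in all WT libraries and blue in every KO library, while KO vehicle replicate 1 stands out in several further rows.

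Without averaging, edgeR called no member under either treatment alone. Under vehicle, DESeq2 called 5 of 47 members (Havcr2 higher, Adra1b, Gm12167, Trim7 and Ublcp1 lower) and 378 of 15261 genes. Under ifetroban it called 1 member, Gm12167, and 69 genes. Between KO vehicle and WT vehicle, edgeR called 8 genes over all genes, 0.0524%, and 0 members. The 6 called higher are 0.0393% and the 2 called lower 0.0131% of all genes. At an unadjusted p under 0.05 there were 10 members (21.3%) against 12.5% of all genes. Between KO ifetroban and WT ifetroban, edgeR called 2 genes, 0.0131%, and 0 members, with 5 members (10.6%) against 4.7% at an unadjusted p under 0.05. The 2 comparisons share no library. In 33 of 47 members (70.2%) the log2 fold change had the same sign in both, against 73.4% of all genes.

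**Figure D5:**
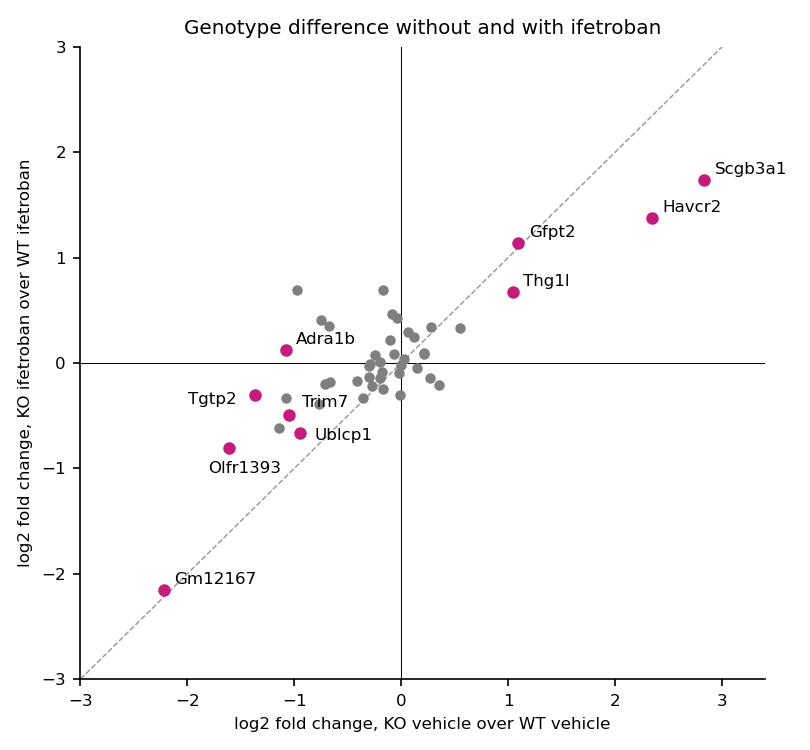
Genotype difference of each measured member under vehicle (horizontal) and under ifetroban (vertical), both as log2 fold change of KO over WT. The dashed line marks equal values and named points are in colour. Gm12167 lies on the line at -2.22 and -2.16, and Adra1b lies at -1.08 and 0.13.

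Ifetroban gave no called member in either genotype in edgeR. In WT, 0 of 15261 genes were called (0%), and 0 members had an unadjusted p under 0.05 against 1.26% of all genes. In KO, 0 genes were called (0%), and 3 members (6.38%) had an unadjusted p under 0.05 against 5.02% of all genes. The interaction of drug and genotype called 0 genes (0%), with 2 members (4.26%) at an unadjusted p under 0.05 against 1.38%. DESeq2 called 0 genes in WT, 3 in KO and 0 in the interaction, none of them a member. Ublcp1 and Gm12167 had ifetroban differences of -0.36 and -0.59 within WT and -0.08 and -0.53 within KO, all on the log2 scale.

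The summed level of the 47 measured members was 920 to 1216 CPM per library, highest in KO vehicle replicate 1. The 95 members under 50 reads together took 20 to 46 reads per library. Just below the minimum stood the pseudogene Gm12182 with 43 reads and the olfactory receptor gene Olfr56 with 37. Just above it stood Gm12185 with 65 reads.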

How the data were processed

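The authors deposited raw counts of reads per gene for each of 9 libraries; STAR 2.5.2b and HTSeq with build GRCm38 are named per the submitters' processing notes, and the annotation release is not given in the sources used here. The reverse-strand counts were used, which held 14.5 times the forward counts. Rows naming no gene held 26.6% to 31.9% of reads and were left out. Symbols, positions and exonic lengths came from GENCODE M21 (49412 of 49671 identifiers matched), promoters from RefSeq. Genes passing filterByExpr (15261) were tested with edgeR 4.0.16 (R 4.3.3), with TMM normalization, 1 coefficient per group, two-sided quasi-likelihood F tests and Benjamini-Hochberg adjustment over all tested genes, called under 0.05. Standard errors were calculated back from the fold change and the F statistic. Members and lists were chosen with earlier results of these data known. Named members were those called, those whose KO and WT libraries did not overlap, those of smallest p in the averaged difference up to 25, the 3 measured members closest to Sgcd on each side and the 5 of highest level per kilobase. Values of 1 measured member are not reported here. Alternatives were DESeq2 1.42.0, RLE size factors, other filters, unstranded counts, the compared groups alone, a replicate block, a length-trend term and left-out libraries. On simulated counts of 15200 genes the averaged contrast recovered 49.5% of 99 genes changed by a log2 of 1. It recovered 92.9% of 99 changed by a log2 of 2. Of 152 calls, 11 were false. The simulated counts held no length trend, unlike these libraries.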

Additional observations from a re-analysis of the deposited data

How the results depend on the processing

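Counts of calls moved with the processing, and the cause was not tested beyond what the settings change by construction. For the averaged genotype difference (2 members, 82 genes in edgeR), DESeq2 called 6 members and 754 genes, no filter beyond 1 read 10 and 1684, unstranded counts 1 member, and a length-trend term 0 and 9. Leaving out the first replicate of both vehicle groups gave 1 and 25, and leaving out 1 library gave 0 to 9 members and 2 to 2098 genes, the highest without KO vehicle replicate 2. Under vehicle (0 members, 8 genes) DESeq2 called 5 and 378, no filter 9 and 1195, the compared groups alone 5 genes, the length term 1 gene, both libraries left out 2 genes, and 1 library left out 0 to 9 members and 1 to 1734 genes. Under ifetroban (0 members, 2 genes) DESeq2 called 1 and 69, no filter 2 and 428, the groups alone 12 genes, the length term 1 gene, both libraries left out 1 and 14, and 1 library left out 1 to 8 genes. With no filter, ifetroban called 34 genes in WT, 428 in KO with 1 member, Adra1b, and 73 in the interaction; in KO, DESeq2 called 3 genes and the fits without 1 library 0 to 449.

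With a replicate block, 5 members and 531 genes were called in the averaged difference and 1 member and 45 genes under vehicle. The labels give replicate numbers but no pairing, and the main fit did not use the numbers to pair libraries. Over 12 same-numbered pairs, deviations from the group means correlated at 0.00108 to 0.478, with 5 over 0.1. In a group of 2 libraries the deviations mirror each other, so these values repeat and cannot decide whether the numbers pair libraries. Within the libraries where long transcripts were low, 14 of 47 members were lower and 13 higher in KO without overlap. Over all genes these were 4806 and 4076, or 31.5% and 26.7%. These libraries are fewer and include 1 WT library, so non-overlap is easily met. Where long transcripts were high, 9 and 8 members did not overlap, against 2369 and 2536 of all genes, or 15.5% and 16.6%. Over libraries of both kinds, 2 members were lower and 1 higher without overlap (348 and 768 of all genes), and without 1 library 2 to 4 and 1 to 5 (375 to 1088 and 817 to 1467).

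The sign turned in some fits, none of these values called. With the length term it was -0.11 for Timd4 and 0.082 for 9930111J21Rik1. The lowest and highest values without libraries were -0.30 and 0.032 for Gm12174, -0.12 and 0.63 for Timd4, -0.48 and 0.071 for Gm12183, -0.81 and 0.27 for Tgtp1, and -0.050 and 0.14 for Btnl9. Of the other values for named members, 555 kept sign and side of the threshold, 34 passed it only in an alternative and 19 no longer passed it.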

Other observations

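Adam19, a membrane-bound metalloprotease, was chosen after its values were seen. It had the widest spread between the 2 WT vehicle libraries among measured members with a mean of 10 CPM or more. It was at 22.3 and 83.4 CPM in WT vehicle, 23.5 and 54.9 in WT ifetroban, 68.4 and 34.7 in KO vehicle and 41.1, 84.5 and 32.5 in KO ifetroban. The ratio of the 2 WT vehicle libraries was 3.74 for Adam19, against a median of 1.23 over 20 such members and at most 1.73 for any other of them. Its averaged genotype difference was 0.19 ± 0.445 (SE, log2) and was not called.

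Flt4, the vascular endothelial growth factor receptor of lymphatic vessels, was at 16.1 to 25.7 CPM in WT and 17.3 to 27.8 CPM in KO (0.06 ± 0.172, SE, log2). Lymphatic endothelial markers (Prox1, Lyve1, Pdpn and Ccl21a) summed to 93.2 to 147 CPM in WT and 105 to 131 CPM in KO, with 3 of 4 tested, 0 called higher and Ccl21a at 0 in all libraries. Flt4 was also chosen after its values were seen.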
